A study of Mus musculus with 14 samples.

Results

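The hypoxia-inducible factor (HIF) subunits and the proteins that sense oxygen for them were followed as 9 genes, chosen by name. They are the alpha subunit genes *Hif1a*, *Epas1* (encoding HIF-2 alpha) and *Hif3a*, the shared partner *Arnt* (HIF-1 beta), the prolyl hydroxylase genes *Egln1* (PHD2), *Egln2* (PHD1) and *Egln3* (PHD3), the ubiquitin ligase subunit *Vhl*, and *Hif1an* (factor inhibiting HIF, an asparagine hydroxylase). All 9 were present among the 39179 genes of the differentiation table and among the 35886 genes of the sorted libraries, and 8 of 9 passed the filter on low values in each experiment, the exception being *Hif3a*.

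Ocy454 cells are a mouse cell line with osteocyte-like properties, kept dividing by a temperature-sensitive large T antigen and differentiated by a shift to a higher temperature. Poly(A) RNA was sequenced from unsorted cells at differentiation days 1, 7, 10 and 14, with 2 libraries per day and 8 in all. In a separate experiment, cells at day 17 by the labels (the study's text gives another day in 1 place) were sorted on surface CD61 (integrin beta 3), and the gates took the top 10% (CD61 high) and the bottom 10% (CD61 low) of live cells by CD61 signal, with 3 libraries from each gate. All libraries came from the same untreated line, and the labels give no oxygen level for any library.

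Depth was similar across libraries, at 27518605 to 34311238 reads on genes per differentiation library and 18815602 to 19220064 estimated counts per sorted library. The marker genes of osteocytes were partly present. Of 10 markers, 4 averaged at least 1 CPM (read counts scaled to a common library total) at day 1 and 8 did so at day 14, while *Fgf23* was at 0 reads on every day and *Sost* at 0 on day 1. None of 5 endothelial and none of 5 adipocyte markers averaged 1 CPM in any group, and the macrophage marker *Adgre1* was at 0 in every library. Of 7 macrophage and osteoclast markers, 2 averaged at least 1 CPM in each group, and their summed level ran from 64.0 to 90.4 CPM over the days and from 26.8 to 35.0 CPM in the sort. Of 5 muscle markers, only *Acta1* averaged 1 CPM, and the summed muscle markers were 2.10 to 2.29 CPM at day 1 and 23.0 to 25.1 CPM at day 14, 17.1 to 18.4 CPM in CD61 low and 29.6 to 42.1 CPM in CD61 high cells. Of 5 chondrocyte markers, 4 averaged at least 1 CPM on each day, summing to 69.6 CPM (day 10) to 122 CPM (day 14). In the sort their summed level was 38.7 to 48.6 CPM in CD61 low and 100.2 to 117 CPM in CD61 high cells. The summed osteocyte list, nearly all of it the collagen gene *Col1a1*, was 35009 to 35057 CPM at day 1 and 23771 to 28988 CPM at day 14, and 16097 to 19642 CPM in CD61 low and 44779 to 47401 CPM in CD61 high cells. Of the 10 markers, 7 had a higher mean on day 14 than on day 1, among them *Dmp1* (0.959 ± 0.0627 and 54.9 ± 3.93 CPM), *Phex* (0.964 ± 0.278 and 93.9 ± 3.64), *Sost* (0 and 17.7 ± 0.50), *Sp7* (130.1 ± 1.28 and 664 ± 9.10), *Bglap* (0.68 ± 0.207 and 22.3 ± 0.395) and *Runx2* (163 ± 0.723 and 265 ± 6.80), the day 1 mean first (SD, n = 2). The early osteocyte marker *Pdpn* went from 28.2 ± 0.317 on day 1 to 19.3 ± 0.163 CPM on day 14 (SD, n = 2) and averaged 15.5 ± 0.599 and 11.1 ± 1.41 CPM in CD61 low and CD61 high cells (SD, n = 3). *Sost*, the osteocyte product sclerostin, averaged 15.9 ± 1.63 and 36.4 ± 4.62 CPM (SD, n = 3) in the same order. *Dmp1* averaged 0.594 ± 0.276 and 11.7 ± 3.96, *Phex* 10.5 ± 1.095 and 47.2 ± 10.6, and *Sp7* 257 ± 39.1 and 806 ± 16.55. *Bglap* averaged 22.6 ± 3.12 and 124 ± 17.0, and *Runx2* 170 ± 25.15 and 399 ± 34.1. Of the 10 markers, only *Pdpn* had a lower mean in CD61 high than in CD61 low cells. The part of these markers in the results was not tested.

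As background, HIF alpha subunits are made continuously, and in the presence of oxygen the EGLN enzymes hydroxylate them on prolines. The VHL protein binds the hydroxylated form and directs it to the proteasome, while the HIF1AN enzyme hydroxylates an asparagine, which blocks binding of coactivators. When oxygen is low the alpha subunits persist, pair with ARNT and bind DNA at a short core motif, and *Egln1* and *Egln3* are themselves known HIF target genes, which closes a feedback loop. This control acts on the protein, so mRNA levels as measured here do not give HIF protein or activity. In bone, HIF in osteoblast lineage cells is known for its effects on blood vessel growth, glycolysis and erythropoietin.

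The upstream sequences of the prolyl hydroxylase genes are shown because *Egln1* and *Egln3* changed strongly in these data and *Egln2* did not. They are the 250 bases before the start of each gene in RefSeq on GRCm38.p6, read 5′ to 3′ along the gene, for chr8:124949255-124949504 (minus strand), chr7:27166803-27167052 (minus strand) and chr12:54203875-54204124 (minus strand) in that order. Capitals mark the core letters of the HIF motif, ACGTG or GCGTG, on either strand, so that a match on the other strand reads CACGT or CACGC.
Egln1: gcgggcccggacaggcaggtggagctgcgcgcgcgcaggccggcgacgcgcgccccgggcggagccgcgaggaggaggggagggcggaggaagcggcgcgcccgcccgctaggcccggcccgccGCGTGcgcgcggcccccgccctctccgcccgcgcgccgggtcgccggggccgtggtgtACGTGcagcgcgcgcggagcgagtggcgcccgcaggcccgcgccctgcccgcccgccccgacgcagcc
Egln2: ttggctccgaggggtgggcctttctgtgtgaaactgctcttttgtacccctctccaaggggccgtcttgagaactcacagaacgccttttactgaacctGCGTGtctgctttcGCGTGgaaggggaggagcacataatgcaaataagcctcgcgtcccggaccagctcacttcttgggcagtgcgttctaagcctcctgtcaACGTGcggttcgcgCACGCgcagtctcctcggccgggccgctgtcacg
Egln3: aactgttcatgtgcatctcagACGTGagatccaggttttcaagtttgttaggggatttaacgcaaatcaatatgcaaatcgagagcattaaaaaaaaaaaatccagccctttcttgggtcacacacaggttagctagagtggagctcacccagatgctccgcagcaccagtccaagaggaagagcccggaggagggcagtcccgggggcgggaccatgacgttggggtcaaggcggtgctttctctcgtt

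The *Egln1* window held 1 ACGTG, whose first base lay 68 bases before the start, and 1 GCGTG at 126 bases. The *Egln3* window held a lone ACGTG at 229 bases before the start. The *Egln2* window held 4 matches, an ACGTG at 48 bases and GCGTG at 151, 137 and, on the other strand, 34 bases, and thus more than that of *Egln3*. Such letters are common, since 38.6% of all 32851 RefSeq windows of the same length held at least 1 match, 16.7% at least 2 and 2.58% at least 4. Singly, ACGTG was in 16.6% and GCGTG in 28.2% of windows. Of the other members with an entry, the *Hif1a* window held 3 ACGTG matches, 2 of which are both strands of 1 palindrome, CACGTG. *Hif3a* held 2 matches, *Arnt* 1, and *Vhl* and *Hif1an* none, and the second *Egln2* start held 1. In all, 8 of 9 members had an entry and *Epas1* had none. Base composition differed widely, with 86% G and C in the *Egln1* window against 50.8% in that of *Egln3* and 59.2% in that of *Egln2*. A match describes letters only, since no binding was measured.

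Over the days, 3 of the 9 genes rose strongly, *Epas1*, *Egln1* and *Egln3*, whereas *Hif1a*, *Arnt*, *Egln2*, *Vhl* and *Hif1an* differed by at most 1.40-fold from their mean at day 1. A gene was called changed at an adjusted p below 0.01 with a Log2FC above 1 or below -1 on the log2(CPM + 1) scale, which understates changes of genes at low level. By this rule limma called 3 of 8 members at day 7 against day 1, where 9.11% of the 12725 genes tested were called. It called 3 of 8 at day 10 against day 1, where 10.5% of all genes were, and 3 of 8 at day 14 against day 1, where 13.4% were. In each comparison all 3 were higher. The comparisons with day 1 share the day 1 libraries and so do not stand as separate evidence. In bulk samples, fewer cells of a type and less RNA per cell cannot be told apart, and the same holds for a rise.

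**Figure D1:**
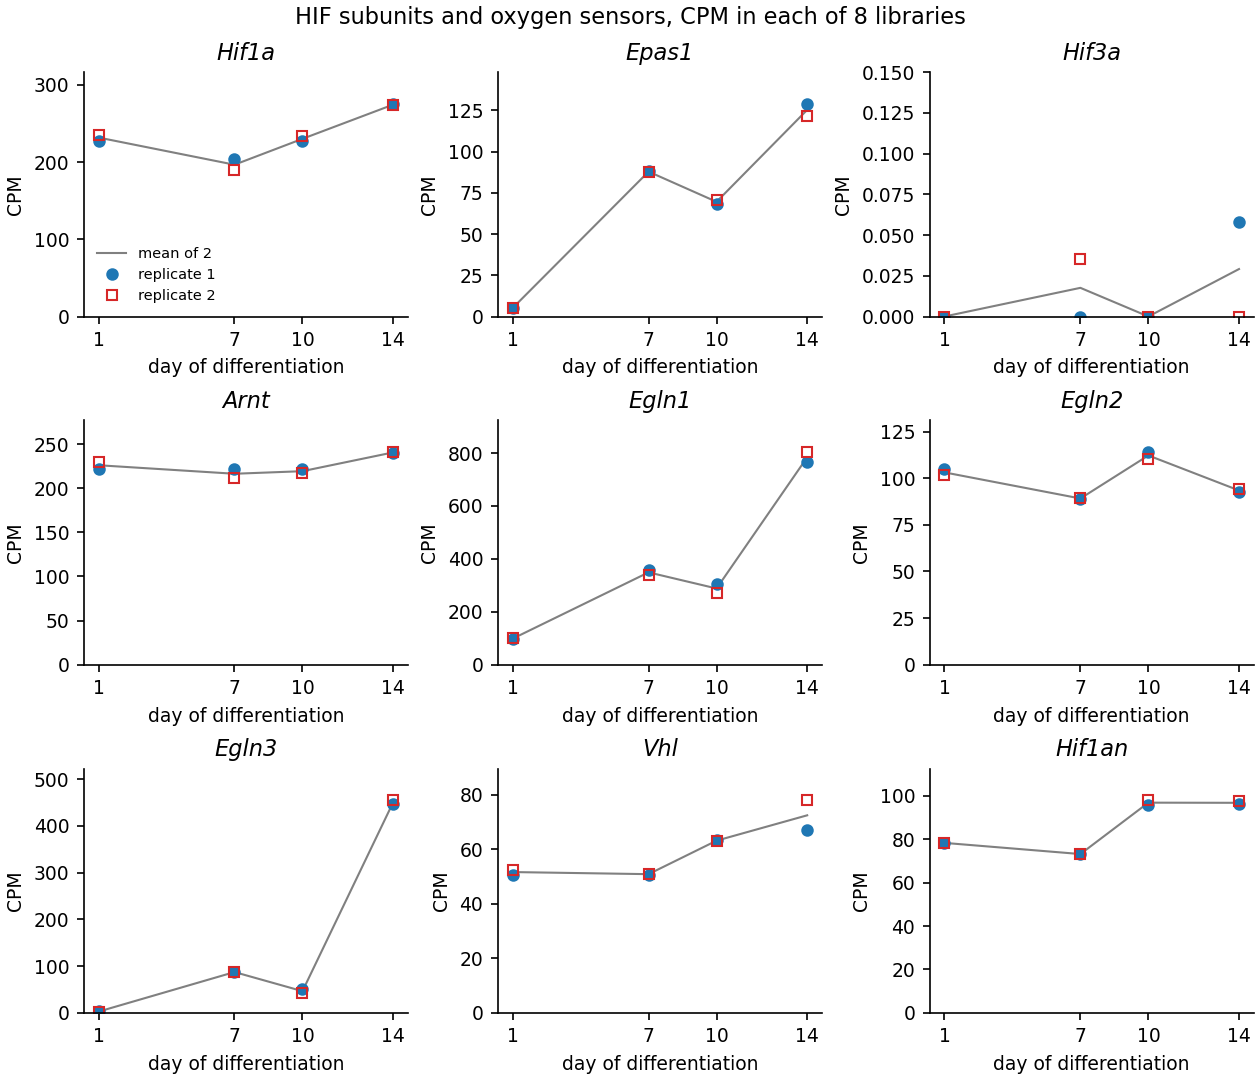
CPM of the 9 genes against day of differentiation, 1 panel per gene, with filled circles for replicate 1, open squares for replicate 2 and a line through the mean of 2; each vertical axis starts at 0 and has its own scale. *Epas1*, *Egln1* and *Egln3* rose by day 7, were lower at day 10 and were highest at day 14, with *Egln3* going from a mean of 2.59 CPM to 449.9 CPM.

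*Epas1* on chromosome 17 (ENSMUSG00000024140, chr17:87061087-87140838 on GRCm39, plus strand) encodes the alpha subunit best known from endothelium, kidney and erythropoietin control. It measured 4.93 and 5.27 CPM in the libraries of day 1, then 88.3 and 87.4 (day 7), 68.2 and 70.9 (day 10) and 129 and 122 (day 14). The libraries of each day lay apart from those of every other day. The Log2FC to day 1 was 3.87, 3.53 and 4.37 for days 7, 10 and 14 (SE 0.05 each), with limma adjusted p-values of 8.65e-28, 7.17e-27 and 3.71e-29. On the unlogged scale the day 14 mean was 24.6 times that of day 1. The 5 endothelial markers together reached at most 0.291 CPM in any library of the days and 0.861 CPM in any of the sort. Their part in the *Epas1* level was not tested.

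*Hif1a* (ENSMUSG00000021109, chr12:73948149-73996321, plus strand), the alpha subunit present in most cells, moved little. It read 228 and 236 CPM in the libraries of day 1, then 204 and 190 (day 7), 227 and 234 (day 10) and 275 and 274 (day 14). The day 7 libraries were the lowest and the day 14 libraries the highest, and those of days 1 and 10 overlapped. Under the wider rule of an adjusted p below 0.01 alone, *Hif1a* was lower at day 7 (Log2FC -0.24 ± 0.04) and higher at day 14 (0.24 ± 0.04), while at day 10 the Log2FC was -0.01 ± 0.04 with a limma adjusted p of 0.82. By that rule limma passed 5 of 8 members at day 7 against day 1, a comparison in which 56.5% of all genes passed, 5 of 8 at day 10 (63.5%) and 7 of 8 at day 14 (68.6%), so these shares were near the background.

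*Hif3a* (ENSMUSG00000004328, chr7:16764918-16796352, minus strand), whose product includes inhibitory forms, was close to undetected. It had 0 reads in the 2 libraries of day 1 and of day 10, which allows up to 0.0456 CPM at day 1 and 0.0488 CPM at day 10 (3 reads over the group, counting error only). There was 1 read at day 7 and there were 2 at day 14, each in 1 library.

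*Arnt* (ENSMUSG00000015522, chr3:95341365-95404551, plus strand), the partner of every alpha subunit, varied least among the detected genes in day means, from 216 to 241 CPM. It read 222 and 230 CPM in the libraries of day 1, then 221 and 211 (day 7), 222 and 217 (day 10) and 240 and 241 (day 14). Its Log2FC to day 1 was -0.06, -0.04 and 0.09 for days 7, 10 and 14 (SE 0.04 each), with limma adjusted p-values of 0.14, 0.30 and 0.032. With TMM scaling of the recovered reads the day 14 value was 0.13 with an adjusted p of 0.0036, which passes the wider rule.

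*Egln3* (ENSMUSG00000035105, chr12:54225767-54250673, minus strand), a hydroxylase known to be strongly induced by HIF, had the largest Log2FC to day 1 of the 8 members tested at days 7, 10 and 14. It read 2.89 and 2.29 CPM in the libraries of day 1, then 87.7 and 86.7 (day 7), 51.3 and 41.5 (day 10) and 445.6 and 454 (day 14). No day overlapped with another. The Log2FC to day 1 was 4.62, 3.72 and 6.98 for days 7, 10 and 14 (SE 0.07 each), with limma adjusted p-values of 1.61e-26, 1.77e-24 and 1.61e-30. The unlogged mean at day 14 was 174 times that at day 1, where 171 reads over both libraries set the precision of the denominator.

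*Egln1* (ENSMUSG00000031987, chr8:125635308-125676865, minus strand), the main oxygen sensor in most tissues, started from a higher level and rose less in fold. It read 95.6 and 100.7 CPM in the libraries of day 1, then 357 and 341 (day 7), 306 and 271 (day 10) and 765 and 803 (day 14). The days did not overlap, and day 14 stood far above the rest. The Log2FC to day 1 was 1.82 ± 0.05, 1.54 ± 0.05 and 2.99 ± 0.05 at days 7, 10 and 14, with limma adjusted p-values of 3.57e-22, 1.30e-20 and 4.56e-27.

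*Egln2* (ENSMUSG00000058709, chr7:26853588-26866408, minus strand), a hydroxylase not known as a HIF target, moved in other directions. It read 105 and 102 CPM in the libraries of day 1, then 88.8 and 89.6 (day 7), 114 and 111 (day 10) and 92.5 and 94.4 (day 14). It was thus highest at day 10, the day on which *Egln1* and *Egln3* dipped, and no 2 days overlapped. It passed the wider rule as lower on day 7 (-0.21 ± 0.04) and day 14 (-0.14 ± 0.04), and for day 10 its Log2FC was 0.12 ± 0.04 with a limma adjusted p of 0.0115 (0.0064 when only the 4 libraries compared were fitted). The day 14 call was lost under 5 alternatives, TMM scaling (-0.11, adjusted p = 0.0201), edgeR on the recovered reads, no trend, and leaving out replicate 1 of day 1 or of day 14 (adjusted p of 0.0567 and 0.0174). The exons of *Egln2* share 1620 bases with *Cyp2t4* on the opposite strand, which averaged 0.719 CPM, and whether counting used strand is not given in the sources used here.

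*Vhl* (ENSMUSG00000033933, chr6:113600920-113608599, plus strand), the subunit that recognizes hydroxylated HIF, rose late and slightly. It read 50.7 and 52.6 CPM in the libraries of day 1, then 50.6 and 51.1 (day 7), 63.4 and 62.9 (day 10) and 67.0 and 77.9 (day 14). Days 1 and 7 overlapped and days 10 and 14 lay above them. The Log2FC to day 1 was 0.29 ± 0.06 at day 10 and 0.48 ± 0.06 at day 14, both past the wider rule, and -0.02 ± 0.06 at day 7 (limma adjusted p = 0.75).

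*Hif1an* (ENSMUSG00000036450, chr19:44551286-44568723, plus strand) also rose between days 7 and 10. It read 78.5 and 78.2 CPM in the libraries of day 1, then 73.3 and 73.1 (day 7), 95.9 and 97.9 (day 10) and 96.2 and 97.5 (day 14). Days 10 and 14 overlapped and were above days 1 and 7. Its Log2FC to day 1 was -0.10 ± 0.04 at day 7 (limma adjusted p = 0.045), 0.30 ± 0.04 at day 10 and 0.30 ± 0.04 at day 14, the last 2 past the wider rule.

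Between days 7 and 10 the members split by direction. *Egln3* fell by 0.90 on the log2 scale (SE 0.07), *Epas1* by 0.33 (SE 0.05) and *Egln1* by 0.28 (SE 0.05), with limma adjusted p-values of 9.70e-11, 8.76e-06 and 1.08e-05; without the trend term that of *Egln1* was 0.0125. *Hif1an* rose by 0.40 ± 0.04, *Egln2* by 0.33 ± 0.04, *Vhl* by 0.31 ± 0.06 and *Hif1a* by 0.23 ± 0.04, and *Arnt* had a Log2FC of 0.02 ± 0.04. None of the 8 passed the fold threshold in limma, against 2.22% of all genes, and edgeR on the recovered reads also called 0, although 7 of 8 had an unadjusted p below 0.05. The same 7 passed the adjusted p threshold, against 48.7% of all genes. Among all called genes 64.5% were higher at day 10, a share that was 53.3% with TMM scaling and 49.8% with quantile normalization. Without replicate 1 of day 10, *Egln3* fell by 1.05 and was called.

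From day 10 to day 14 limma called 2 of 8 members, against 2.96% of all genes. These were *Egln3*, with a Log2FC of 3.26 ± 0.07 (adjusted p = 1.04e-21), and *Egln1*, with 1.44 ± 0.05 (adjusted p = 3.82e-19). *Epas1* rose by 0.84 ± 0.05, below the fold threshold. By adjusted p alone 7 of 8 members passed, against 52.8% of all genes, including small rises of *Hif1a* (0.25), *Vhl* (0.19) and *Arnt* (0.13) and a fall of *Egln2* by 0.26. *Hif1an* did not change detectably (0.00 ± 0.04). The *Vhl* call was lost without replicate 2 of day 14 (0.08, adjusted p = 0.191), without either library of day 10 (0.20 and 0.19, adjusted p of 0.0193 and 0.0262), with no filter (adjusted p = 0.0543) and with no trend (adjusted p = 0.0514), and that of *Arnt* in 3 alternatives (no filter, no trend, and without replicate 2 of day 10, adjusted p of 0.0162 to 0.0391).

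**Figure D2:**
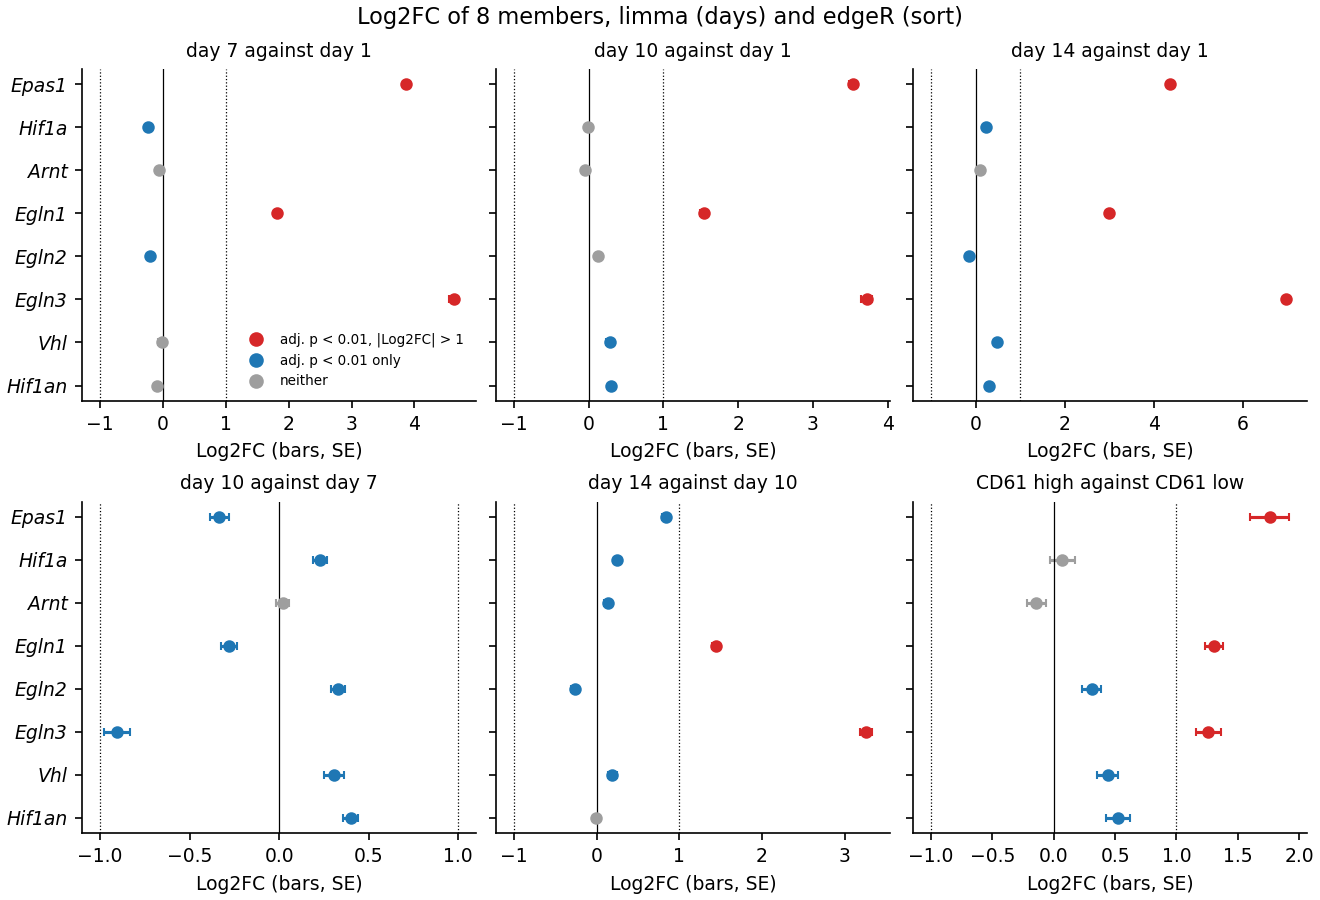
Log2FC of 8 members in the 5 day comparisons (limma) and in CD61 high against CD61 low (edgeR), with SE as horizontal bars, dotted lines at -1 and 1 and horizontal scales that differ between panels. *Epas1*, *Egln1* and *Egln3* are the genes past both thresholds (red) in the comparisons with day 1 and in the sort; blue points pass the adjusted p alone.

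To compare genes with each other, CPM was divided by the length in kilobases that the deposited table gives for each gene. At day 1 the order per kilobase was *Hif1a* (41.1 ± 0.984 CPM per kb, SD, n = 2), *Arnt* (33.6 ± 0.83), *Egln2* (33.1 ± 0.747), *Egln1* (28.0 ± 1.02), *Vhl* (17.3 ± 0.438), *Hif1an* (11.9 ± 0.0381), *Egln3* (0.975 ± 0.161) and *Epas1* (0.963 ± 0.0454). *Arnt* and *Egln2* did not differ beyond their spread, nor did *Egln3* and *Epas1*. At day 14 *Egln1* (223 ± 7.66) and *Egln3* (169 ± 2.30) led, followed by *Hif1a* (48.6 ± 0.172), *Arnt* (35.8 ± 0.0323), *Egln2* (30.0 ± 0.425), *Vhl* (24.2 ± 2.58), *Epas1* (23.7 ± 0.933) and *Hif1an* (14.7 ± 0.145). There *Vhl* and *Epas1* did not differ beyond their spread. The order depends on the lengths, and for *Egln1* the table gives 3510 bases where the exons of the GENCODE M39 annotation cover 8958.

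By the same table lengths the make-up of the hydroxylases differed between days. *Egln2* held 53.4% ± 1.30 of the summed per-kilobase level of the 3 *Egln* genes at day 1 (SD, n = 2) and 7.10% ± 0.0738 at day 14. *Egln3* went from 1.57% ± 0.261 to 40.1% ± 0.441, and *Egln1* from 45.1% ± 1.56 to 52.8% ± 0.515, with a maximum of 61.8% ± 0.751 at day 7. The 3 genes together rose from 62.1 ± 0.109 to 423 ± 10.4 CPM per kb. Set against the summed *Hif1a* and *Epas1* level, the ratio began at 1.48 ± 0.0336 (day 1), passed through 3.13 ± 0.0509 (day 7) and 2.52 ± 0.25 (day 10) and reached 5.85 ± 0.233 on day 14. Among the alpha subunits *Epas1* made up 2.29% ± 0.0518 of that sum on day 1, then 32.3% ± 0.954 (day 7), 24.4% ± 0.143 (day 10) and 32.7% ± 0.790 (day 14), so *Hif1a* remained the larger on every day. These values depend on gene length. With the M39 exon bases as length, an alternative chosen after seeing the data, *Egln2* went from 52.6% ± 1.06 at day 1 to 4.49% ± 0.028 at day 14 and *Egln3* from 3.83% ± 0.621 to 62.7% ± 0.428, while *Egln1* went the other way, from 43.6% ± 1.68 to 32.8% ± 0.456, so that *Egln3* and not *Egln1* was the largest at day 14. The ratio of hydroxylases to *Hif1a* plus *Epas1* was then 0.877 ± 0.0237 at day 1 and 4.85 ± 0.186 at day 14, and *Epas1* held 3.15% ± 0.0705 and 40.3% ± 0.863.

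**Figure D3:**
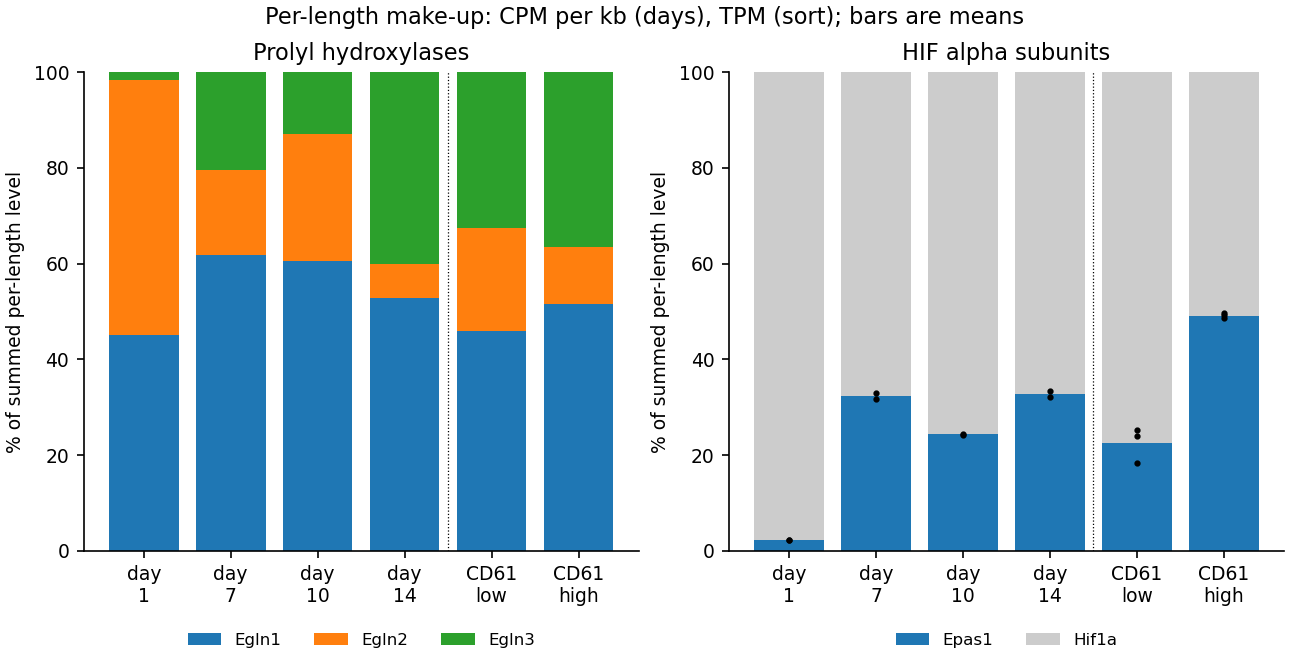
Percent of the summed per-length level held by each hydroxylase gene (left) and by *Epas1* and *Hif1a* (right), as mean bars for the 4 days (CPM per kb, n = 2) and the 2 sorted groups (TPM, n = 3), with points for single libraries on the right; the dotted line separates the 2 experiments, whose units differ. *Egln2* shrinks from 53.4% at day 1 to 7.10% at day 14 as *Egln3* grows to 40.1%, on the lengths of the deposited table, and *Epas1* is 22.5% in CD61 low and 49.1% in CD61 high cells.

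In the sort, *Epas1*, *Egln1* and *Egln3* were higher in CD61 high cells, and *Hif1a* and *Arnt* did not pass the test. Values are CPM after TMM scaling. edgeR called 3 of 8 members, all higher, against 9.22% of the 12077 genes tested. By adjusted p alone 6 of 8 passed, all higher, against 35.4% of all genes.

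*Epas1* read 66.0, 50.4 and 83.7 CPM in CD61 low cells against 250.9, 198 and 229 in CD61 high cells, with no overlap. Its Log2FC was 1.76 ± 0.16 (edgeR adjusted p = 1.19e-05), a mean 3.39 times as high. *Egln1* read 278, 239 and 256 CPM in CD61 low and 635, 644 and 632 in CD61 high cells, again apart. The Log2FC was 1.31 ± 0.07 (edgeR adjusted p = 5.75e-07). *Egln3* read 143, 113 and 143 CPM against 339, 309 and 307, which did not overlap either. The Log2FC was 1.26 ± 0.10 (edgeR adjusted p = 3.89e-06).

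The remaining members differed less. *Hif1an* read 43.8, 49.4 and 51.3 CPM in CD61 low and 75.0, 61.3 and 71.8 in CD61 high cells, with a Log2FC of 0.53 ± 0.10 (edgeR adjusted p = 0.0012). *Vhl* read 32.6, 31.6 and 32.9 against 40.5, 48.2 and 43.2, with 0.44 ± 0.09 (adjusted p = 0.0017, edgeR). Neither gene overlapped between the groups. *Egln2* read 53.3, 52.1 and 48.3 against 59.7, 67.4 and 63.2, with 0.31 ± 0.08 (edgeR adjusted p = 0.0078). *Hif1a* overlapped, at 159, 168 and 189 against 198, 156 and 187 CPM, with a Log2FC of 0.07 ± 0.10 (edgeR adjusted p = 0.59). *Arnt* read 222, 232 and 255 against 216, 206 and 221, just apart, with -0.14 ± 0.07 (edgeR adjusted p = 0.14). *Hif3a* had 12 estimated counts over the CD61 low and 15 over the CD61 high libraries and was not tested.

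**Figure D4:**
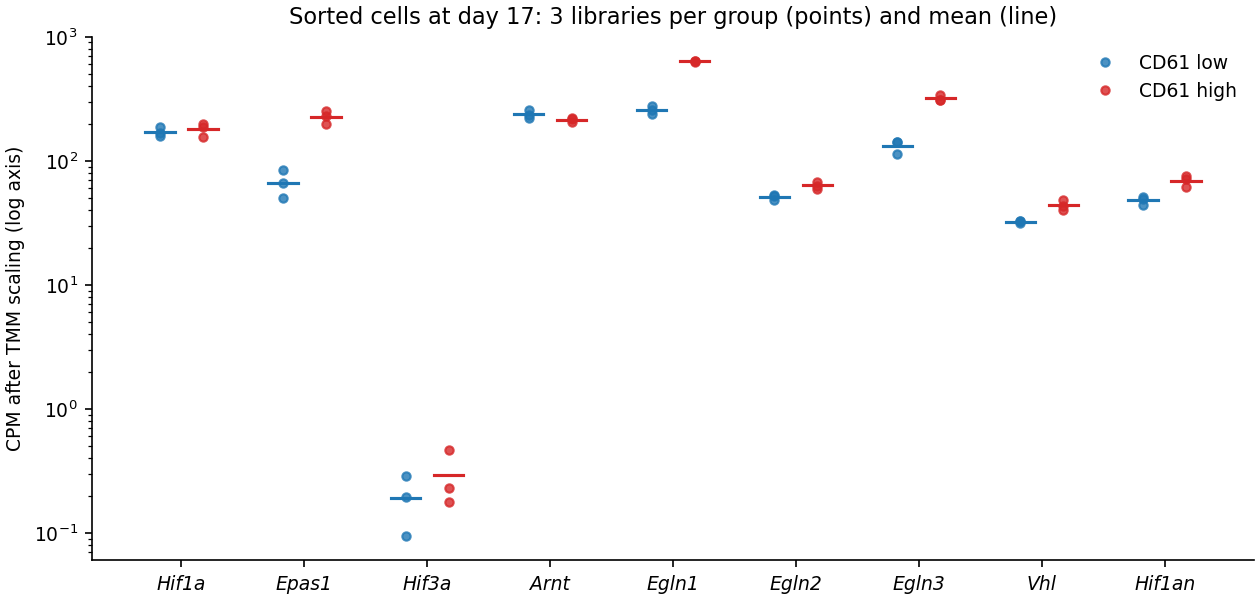
CPM after TMM scaling of the 9 genes in CD61 low and CD61 high cells on a log axis, with a point per library (n = 3 per group) and a line at the mean. *Epas1*, *Egln1* and *Egln3* are separated by group, with means of 66.7 against 226, 258 against 637 and 133 against 318 CPM, while *Hif1a* overlaps.

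Scaling bears on the sort, because TMM factors were 0.895 to 0.909 in CD61 high and 1.10 to 1.13 in CD61 low libraries. With library size alone the median Log2FC of all genes moved from 0.00 to -0.29, and the share of called genes that were higher went from 52.6% to 24.7%. Under that scaling *Epas1* (1.46) and *Egln1* (1.01) kept their call, *Egln3* (0.96) fell below the fold threshold, and *Hif1an* (0.22), *Vhl* (0.14) and *Egln2* (0.01) no longer passed the adjusted p. *Hif1a* changed sign to -0.23 without passing, and *Arnt* at -0.44 passed as lower (adjusted p = 0.00034). The *Egln2* call was also lost with TMM after the filter (adjusted p = 0.011), with an offset for transcript length (0.0297), with the replicate block (0.0199) and without any of 5 libraries (adjusted p of 0.0169 to 0.0339 without replicate 1, 2 or 3 of CD61 low or replicate 2 or 3 of CD61 high). The *Vhl* call was lost with the length offset (adjusted p = 0.0414) and without replicate 2 of CD61 low (adjusted p = 0.0127).

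The authors' TPM, which is per length and has no TMM scaling, gave the levels between genes. In CD61 low cells the order was *Egln1* (136 ± 8.05 TPM, SD, n = 3), *Arnt* (136 ± 18.3), *Egln3* (96.6 ± 12.9), *Hif1a* (76.8 ± 8.15), *Egln2* (63.1 ± 1.18), *Vhl* (24.6 ± 2.17), *Epas1* (22.5 ± 5.90), *Hif1an* (16.1 ± 1.88) and *Hif3a* (0.0746 ± 0.0131). The libraries of *Egln1* and *Arnt* overlapped, as did those of *Egln3* and *Hif1a*, of *Vhl* and *Epas1*, and of *Epas1* and *Hif1an*. In CD61 high cells it was *Egln1* (266 ± 8.59), *Egln3* (188 ± 17.2), *Arnt* (98.2 ± 8.62), *Hif1a* (64.4 ± 11.4), *Epas1* (62.1 ± 10.2), *Egln2* (61.8 ± 0.686), *Vhl* (25.0 ± 1.09), *Hif1an* (18.6 ± 2.69) and *Hif3a* (0.0854 ± 0.0326). *Hif1a*, *Epas1* and *Egln2* overlapped there. *Epas1* thus made up 22.5% ± 3.67 of the summed *Hif1a* and *Epas1* TPM in CD61 low cells and 49.1% ± 0.518 in CD61 high cells, and the ratio of *Hif1a* to *Epas1* was 3.53 ± 0.806 against 1.04 ± 0.0215. *Egln2* held 21.4% ± 1.82 of the hydroxylase TPM in CD61 low and 12.0% ± 0.60 in CD61 high cells, and the 3 hydroxylases summed to 296 ± 19.7 and 516 ± 25.6 TPM. Their ratio to *Hif1a* plus *Epas1* was 3.00 ± 0.35 in CD61 low and 4.14 ± 0.549 in CD61 high cells.

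By mean share, each tested gene with more than 1 transcript quantified had the same leading transcript in both groups. *Egln1* and *Egln3* each had only 1 transcript among those quantified, so their shares were fixed in advance and do not describe transcript use. GENCODE M39 lists 17 transcripts for *Egln1*. *Epas1* was, to within 1.14% in 1 library, a lone transcript by TPM. *Hif1a* was led by Hif1a-201, with 82.1% ± 4.27 of its TPM in CD61 low and 81.4% ± 3.65 in CD61 high cells. Arnt-201 held 48.4% ± 6.71 and 52.8% ± 3.38 of *Arnt*, and Arnt-202 held 36.3% ± 5.78 and 32.5% ± 3.88. Egln2-201 made up 72.6%, 73.9% and 76.5% of *Egln2* in the CD61 low libraries and 79.4%, 86.3% and 85.1% in the CD61 high libraries, which did not overlap, and Egln2-202 was correspondingly 15.4% ± 3.73 and 8.54% ± 2.16. These shares are estimates by the quantifier, given as a description with no test.

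Known HIF target genes other than the members were counted next, from a list of 57 genes of glycolysis, pH, mitochondria, vessels and matrix. The list was chosen with earlier results of these data known. Its counts, for the days and the sort, are therefore a description and not independent support. At day 7 against day 1, limma called 32 of the 54 tested as higher and 1 as lower (61.1% of the list, against 9.11% of all genes), with a median Log2FC of 1.53 beside -0.05 for all genes. At day 14 against day 1, 39 were called higher and 2 lower (75.9%, against 13.4%), with a median of 1.88 beside -0.03. At day 10 against day 1, 24 were called higher and 2 lower (48.1%, against 10.5%), with a median of 0.86 beside 0.02. Between days 7 and 10, 1 was called higher and 7 lower (14.8%, against 2.22%, with a median of -0.50 beside 0.07), and between days 10 and 14, 23 were called higher and none lower in limma (42.6%, against 2.96%, with a median of 0.93 beside -0.04). The comparisons share libraries, so these counts are side by side and not independent.

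By the naming rule the largest rises at day 14 were in *Ndufa4l2*, a subunit-like protein of the respiratory chain, from 3.97 ± 0.518 to 458 ± 24.4 CPM (SD, n = 2), and in *Car9*, a membrane carbonic anhydrase, from 2.49 ± 0.194 to 251.5 ± 1.54. *Slc16a3*, a lactate exporter, went from 2.96 ± 0.411 to 149.9 ± 2.82, and *Ak4*, a mitochondrial adenylate kinase, from 1.86 ± 0.716 to 91.5 ± 4.50. The called falls were *Edn1*, a vasoconstrictor peptide, from 4.77 ± 0.484 to 0.626 ± 0.143 CPM and *Flt1*, a VEGF receptor, from 12.5 ± 0.409 to 5.46 ± 0.392. Among the members *Egln3* exceeded all of these in Log2FC, at 6.98 against 6.53 for *Ndufa4l2*.

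In the sort, edgeR called 21 of 53 target genes as higher and 1 as lower (41.5%, against 9.22% of all genes), with a median Log2FC of 0.87 beside 0.00 for all genes. With scaling by library size alone, 5 were called higher and 3 lower. *Adm*, a vasodilator peptide, measured 2.01 ± 0.760 CPM in CD61 low and 8.13 ± 1.92 in CD61 high cells (SD, n = 3), *Ndufa4l2* 203 ± 31.1 and 691 ± 66.0, *Slc16a3* 55.4 ± 7.35 and 173 ± 8.61, and *Aldoc*, a glycolytic aldolase, 23.6 ± 4.52 and 65.4 ± 4.74. *Flt1* was lower, at 6.75 ± 0.501 against 0.794 ± 0.463. *Edn1* did not pass the filter on low values and was not tested. It averaged 5.54 ± 0.722 CPM in CD61 low and 0.389 ± 0.147 in CD61 high cells. *Epas1* at 1.76 lay just below *Ndufa4l2* at 1.77 on the Log2FC scale.

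**Figure D5:**
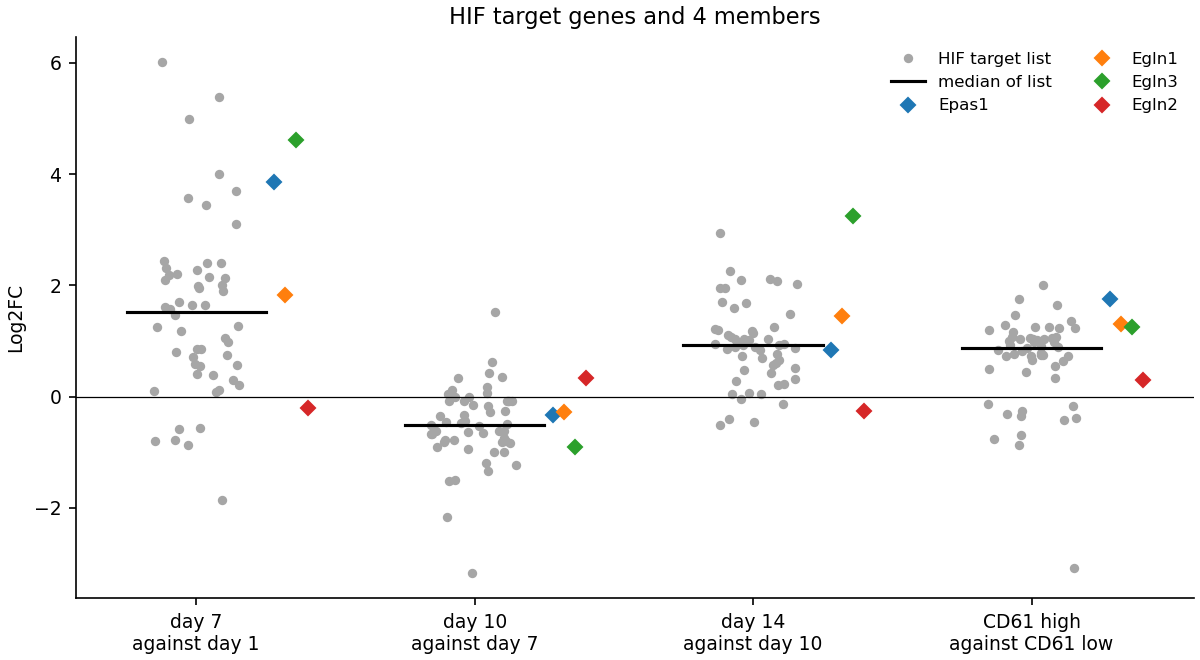
Log2FC of the HIF target list (grey points, 54 genes for the days and 53 for the sort) with its median (line), beside *Epas1*, *Egln1*, *Egln3* and *Egln2* (diamonds), in 3 successive day comparisons and the sort. The list's median was 1.53, -0.50, 0.93 and 0.87 from left to right, and *Egln2* lay on the other side of 0 from the median in the 3 day comparisons. The list was chosen with earlier results of these data known.

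For the rest of the pathway the counts of called genes were small and near or below the share of all genes called, and nothing about these lists is read from them. Of 18 genes of the VHL complex and regulators of the hydroxylases, limma called 1 (5.56%, against 13.4% of all genes) at day 14 against day 1, *Wsb1*, a ubiquitin ligase subunit that has VHL among its substrates, from 91.1 ± 1.24 to 209.7 ± 24.3 CPM (SD, n = 2). The median Log2FC of these genes was -0.02 beside -0.03 for all genes. In the sort, where 9.22% of all genes were called, edgeR called none of the 18, DESeq2 likewise 0, and 11 had an unadjusted p below 0.05 (median -0.03 beside 0.00). Of 10 HIF partners and coactivators, limma called none at day 14 (13.4% of all genes), with 6 at an unadjusted p below 0.05, and edgeR on the recovered reads called 1, while in the sort edgeR and DESeq2 called 0 of 9 (9.22% of all genes), with 5 at an unadjusted p below 0.05. At day 10 against day 1, limma called 1 of the 10 partners, *Arnt2*, a relative of *Arnt*, which was lower (1.22 ± 0.0522 to 0.0489 ± 0.0236 CPM), against 10.5% of all genes.

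Other enzymes that use oxygen and 2-oxoglutarate or a like chemistry were counted as well, 18 of 19 being tested. At day 14 against day 1, limma called 3 (16.7%) as higher and none as lower, a share near the 13.4% of all genes called. They were *Tet1*, from 3.42 ± 0.405 to 11.2 ± 0.330 CPM, and *Tet2*, from 14.6 ± 1.22 to 37.2 ± 0.720 (SD, n = 2), which oxidize methylcytosine, and *Kdm6b*, a histone demethylase, from 57.1 ± 2.65 to 146 ± 6.47. The list's median Log2FC was 0.17 beside -0.03 for all genes. At day 10 against day 1, 1 of the 18 was called, *Kdm5b*, a histone demethylase, which was lower (50.5 ± 1.48 to 22.1 ± 1.00 CPM), against 10.5% of all genes. In the sort, edgeR and DESeq2 called 0 of 18 against 9.22% of all genes, with 9 at an unadjusted p below 0.05 and a median of 0.10 beside 0.00.

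Finally, the genes whose course over the 8 differentiation libraries was most like each called member were listed among the 10313 genes averaging 5 CPM or more, by Pearson r on log2(CPM + 1). The 8 points are 4 days with 2 libraries each, so the values describe the course over days only. For *Epas1* they were *Car9*, *Ncf1* (a subunit of the phagocyte NADPH oxidase) and *Ppm1e* (a protein phosphatase), each with r = 0.999. For *Egln1* they were *2500002B13Rik* (0.999), *Bnip3l*, a mitophagy receptor (0.998), and *Cdc25b*, a cell cycle phosphatase (0.997). For *Egln3* they were *Nat8l*, which makes N-acetylaspartate (0.999), *Rtkn2* (0.999) and *Tinagl1* (0.999). *Egln1* and *Egln3* were close to each other (r = 0.997), with *Egln3* at rank 4 for *Egln1* and *Egln1* at rank 5 for *Egln3*. *Epas1* had r = 0.932 with *Egln1* and 0.947 with *Egln3*, which came only at ranks 624 and 487 for *Epas1*. *Hif1a* had r = 0.104 with *Epas1* and *Egln2* had r = -0.477 with *Egln3*.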

How the data were processed

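RNA of Ocy454 cells was measured in 14 libraries, 8 over differentiation and 6 from the sort. For the days, the authors deposited CPM, which they made with STAR and HTSeq-count and scaled to each library's total. The submitters' processing notes name GRCm39, and versions and annotation are not given in the sources used here. Of the CPM values, 100% lay within 0.01 of a whole number of reads. For the sort, the authors ran Salmon on GRCm39 transcripts and deposited estimated counts and TPM per transcript.

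Estimated counts of 115556 of 116747 transcripts (99.3% to 99.4% of counts) were summed per gene with GENCODE M39 and rounded. Days were compared with limma 3.58.1 (trend) on log2(CPM + 1) for genes above 1 CPM in at least 1 library, all 8 libraries sharing the spread, and the sort with edgeR 4.0.16 (quasi-likelihood, TMM over all genes) for genes reaching 5 normalized counts in every library, in R 4.3.3. p-values were adjusted by Benjamini-Hochberg over all genes tested and are two-sided. The scripts were tested on simulated data. TPM served for levels between genes only. RNA was isolated with a different kit in each experiment, and no test was made across them. Figures used matplotlib 3.10.9.

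Named genes were the 9 members, up to 4 called genes per direction and list at day 14 and in the sort whose groups do not overlap, and the 3 genes most like each called member. *Cyp2t4*, *Arnt2*, *Kdm5b*, *Edn1* in the sort and the markers named were added after their values were seen. Members and lists were chosen with earlier results of these data known. The study describes biological duplicates (days) and independent groups of cells (sort), and replicates differed by more than counting noise. Floors cover counting error only, while SDs and SEs rest on the spread between libraries. Alternatives were DESeq2 1.42.0, other scalings, filters and pseudocounts, a length offset, other gene lengths (added after seeing the data), the replicate block and each library left out.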

Additional observations from a re-analysis of the deposited data

How the results depend on the processing

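The called rises of *Epas1*, *Egln1* and *Egln3* against day 1 kept direction and call under every alternative tried. Their adjusted p-values, however, varied with the alternative by many orders of magnitude. At day 14 the Log2FC ranged over 4.33 to 4.66, 2.95 to 3.03 and 6.86 to 7.47. In the sort it ranged over 1.46 to 1.94, 1.01 to 1.36 and 0.96 to 1.31, the lowest being library size alone, where *Egln3* lost its call. Of 632 alternative values of members' Log2FC, 601 kept their side of the adjusted p, 27 no longer passed and 4 newly passed. The sign changed in 16, none of which passed the test before or after. The number of members called between days 7 and 10 ranged from 0 to 1 when each library was left out. The causes of the following shifts were not tested. HIF targets called lower at day 14 were 1 with a mean of at least 5 CPM, which leaves fewer genes tested. In the sort, those called lower were 2 with no filter, 2 with edgeR's own filter and 1 to 2 with each library left out. With library size alone the targets called were 5 higher and 3 lower, and 1 of the other dioxygenases was lower. HIF partners called lower at day 14 were 1 with a pseudocount of 0.1, with quantile normalization and with edgeR on the recovered reads, and 0 to 1 with each library left out. edgeR on the recovered reads called 334 genes higher and 216 lower from day 7 to 10 (limma 182 and 100), and 504 and 227 from day 10 to 14 (limma 266 and 111).

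Replicate numbers were not taken to pair the samples. Deviations of same-numbered libraries correlated at 0.0061 to 0.087 between days, and at -0.27, 0.31 and -0.049 in the sort, where CD61 high replicate 1 correlated best with CD61 low replicate 3 (0.41) and CD61 high replicate 3 with CD61 low replicate 1 (0.19). With 3 libraries per gate, these correlations cannot exclude a pairing. The study describes taking both gates from 3 independent groups of cells. The sources used here do not say which CD61 low and CD61 high libraries share a culture, so no other pairing was fitted. With the replicate block the members called stayed 3, 3, 3, 0, 2 and 3 in the 6 comparisons, and those past the adjusted p in the sort were 5 in place of 6, without *Egln2* (adjusted p = 0.0199). Depth limits *Hif3a*, for which 3 reads are worth 0.0874 to 0.109 CPM in a differentiation library and 0.156 to 0.159 CPM in a sorted library, before TMM scaling.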
